A study of Mus musculus with 2 samples.

Results

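The Ifi200 genes encode a mouse family of DNA-binding proteins, also called PYHIN proteins, that lie side by side on chromosome 1. The members described here are Ifi202b, Ifi203, Ifi204, Ifi205, Mnda, Aim2 and Pyhin1, 7 genes chosen by name because the family varies between mouse strains and with earlier results of these arrays known. They were found as non-control probes whose accession maps to one of these genes, and 5 of the 7 genes had a probe, 8 probes in all, out of 20655 named genes with 27226 probes on the array. Mnda and Pyhin1 are the older symbols of Ifi211 and Ifi209. Ifi203 and Ifi205 had no probe matched by accession and are not analysed here. A further 5 Ifi200 genes of the same cluster with 9 probes (Ifi207, Ifi208, Ifi213, Ifi214 and Mndal) are shown beside them, which makes 17 probes for 10 genes.

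RNA came from the spleens of healthy, untreated male mice and was hybridised to 2 one-colour arrays. The first array carried RNA of wild-type (Loxl3+/+) mice, and the second carried RNA labelled as Loxl3 knock-out (Loxl3-/-). Strain, age, the allele used to disrupt Loxl3 and any pooling of animals are not given in the labels. With 1 array per genotype there are no replicates and no test, so every difference below describes these 2 arrays alone.

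Most Ifi200 proteins pair an N-terminal pyrin domain, which binds other pyrin domains, with a C-terminal HIN domain, which binds double-stranded DNA. AIM2 recognises DNA in the cytosol and recruits the adaptor ASC and caspase-1 into an inflammasome, which matures interleukin-1 beta and interleukin-18 and opens gasdermin D pores. The p202 protein made from Ifi202b has HIN domains but no pyrin domain and is known in mice as an inhibitor of AIM2. Many genes of the family are induced by interferon in macrophages and lymphocytes, and the level of Ifi202b is known to differ widely between inbred strains.

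The promoters of the family are shown as a description of their sequence. The motif counts were added after the differences of these arrays were seen, so they are not an independent division of the genes. RefSeq promoter windows of build GRCm38.p6, each running from 250 bases before to 50 bases after a gene start, matched 12 of the 13 coding Ifi200 genes of the cluster by symbol. GAAA, any 2 bases and again GAAA, a core of the interferon-stimulated response element (ISRE) bound by interferon-activated transcription factors, was searched on both strands. It was present in at least 1 window of 9 of these 12 genes, which have 14 windows, against 3.44% of all 32851 windows of the same length. Some of these promoters are near-identical, so the 9 genes are not 9 separate occurrences. In the stretches below the capitals mark that core, and the reading direction is that of the gene.
Ifi214 (chr1:173536017-173536046, minus strand): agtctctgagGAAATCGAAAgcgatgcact
Ifi213 (chr1:173599326-173599355, minus strand): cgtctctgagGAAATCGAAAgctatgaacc
Ifi208 (chr1:173673597-173673626, plus strand): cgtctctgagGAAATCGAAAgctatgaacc
Ifi207 (chr1:173741831-173741860, minus strand): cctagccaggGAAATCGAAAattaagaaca
Mndal (chr1:173880204-173880233, minus strand): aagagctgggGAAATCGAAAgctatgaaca
Ifi211 (chr1:173913064-173913093, minus strand): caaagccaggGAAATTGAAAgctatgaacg
Ifi206 (chr1:173491339-173491368, minus strand): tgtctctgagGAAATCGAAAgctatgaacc
Ifi203 (chr1:173942508-173942537, minus strand): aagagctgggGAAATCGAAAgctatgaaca
Ifi205 (chr1:174031870-174031899, minus strand): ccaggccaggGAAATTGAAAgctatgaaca

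In Ifi206, Ifi207, Ifi211, the first window of Mndal and the second window of Ifi203 the core began 35 to 41 bases before the gene start. In Ifi208, Ifi213, Ifi214 and Ifi205 it began 58, 73, 79 and 134 bases before it. The 3 genes without the core were Aim2, Ifi209 and Ifi202b. The 9-letter word AAATCGAAA, which overlaps the core and was picked because more family promoters share it than any other word of its length, occurred in 8 of the 12 genes and in 0.125% of all windows. Ifi209 holds this word without the full core, as its stretch shows with the word in capitals.
Ifi209 (chr1:173630771-173630799, plus strand): atctctgagtAAATCGAAAgagatgcact

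The whole windows of Ifi202b and Aim2, the members with the highest differences, and of Ifi208, the lowest, are printed for comparison. In Ifi202b the capitals mark a match to TTCNNNGAA, the letters of the interferon-gamma activated site (GAS), which reads the same on both strands and is present in 8.3% of all windows. Among the 12 genes it was found in Ifi202b alone. Neither motif was found in the Aim2 window, which is therefore all in lower case.
Ifi202b (chr1:173982795-173983094, minus strand): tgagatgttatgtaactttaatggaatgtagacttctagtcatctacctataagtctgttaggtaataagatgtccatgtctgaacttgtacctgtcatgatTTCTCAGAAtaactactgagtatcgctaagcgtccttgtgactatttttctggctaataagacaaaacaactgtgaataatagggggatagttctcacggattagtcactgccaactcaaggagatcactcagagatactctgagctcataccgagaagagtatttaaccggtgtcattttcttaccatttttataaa
Aim2 (chr1:173420354-173420653, plus strand): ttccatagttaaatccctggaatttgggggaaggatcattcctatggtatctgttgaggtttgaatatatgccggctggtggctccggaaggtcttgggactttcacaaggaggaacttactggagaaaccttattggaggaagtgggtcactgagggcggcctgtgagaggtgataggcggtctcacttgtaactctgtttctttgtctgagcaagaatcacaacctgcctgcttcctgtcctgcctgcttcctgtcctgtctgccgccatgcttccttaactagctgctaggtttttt
Ifi208 (chr1:173673415-173673714, plus strand): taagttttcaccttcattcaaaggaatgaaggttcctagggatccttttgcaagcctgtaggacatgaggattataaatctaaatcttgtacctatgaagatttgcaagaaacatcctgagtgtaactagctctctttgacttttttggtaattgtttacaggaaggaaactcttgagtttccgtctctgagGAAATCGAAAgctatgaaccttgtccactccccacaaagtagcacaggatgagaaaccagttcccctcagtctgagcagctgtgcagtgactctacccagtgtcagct

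Aligned end to end, the first windows of Ifi209 and Ifi214 were 95.3% identical, those of Ifi208 and Ifi213 89.5% and those of Ifi207 and Ifi211 85.9%. The median over all 66 pairs of genes was 48.5%. Just the first window of each gene was aligned, so likeness to a second window is not counted. The printed stretches of Mndal and Ifi203, the latter from its second window, are identical, while their first windows were 46.2% identical. A match is a description of these letters in a C57BL/6J reference and says nothing about binding in these mice.

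Signals are background-corrected fluorescence per spot, and differences are given on the log2 scale, knockout-labelled less wild type, after each array was scaled on its 75th percentile (974 and 1400). Errors after ± are the scanner software's error of the log2 difference of each probe, carry no variation between animals, and cover 1 spot per array, because every Ifi200 probe was printed on 1 spot. For 259 other probes printed 10 times, the SD of the log2 difference between repeated spots had a median of 0.111. At least 2-fold, a log2 difference of 1 or more, stands in for a call. The Loxl3 probe itself was above background on both arrays, at 117 (wild type) and 125 (knockout-labelled), and its scaled difference was −0.43 ± 0.29. Whether this probe lies inside the deleted part is not known here, so that array is called knockout-labelled throughout. The 8 spleen-defining genes fixed for this purpose, among them Tlx1, Nkx2-5 and Cd3e, were well above background on both arrays.

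Of the 5 measured members, 1 (Ifi202b) passed 2-fold upward on the knockout-labelled array, and none passed it downward. Over all 13716 measured genes, 2.57% were 2-fold higher and 2.26% were 2-fold lower, and since the members were chosen on this contrast nothing is read from their count. The median of the 5 members was −0.32 and that of all 10 measured Ifi200 genes was −0.53, beside −0.09 over all genes. The former is the value of the brightest Pyhin1 probe. Of the 10 genes 7 lay below 0 (59.2% of all genes did), and the same number lay below the median of all genes. By probe, 11 of the 16 detected Ifi200 probes lay below 0, 2 were 2-fold higher and 3 were 2-fold lower. Over all 22773 detected probes these shares were 55.7%, 3.49% and 2.51%.

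**Figure D1:**
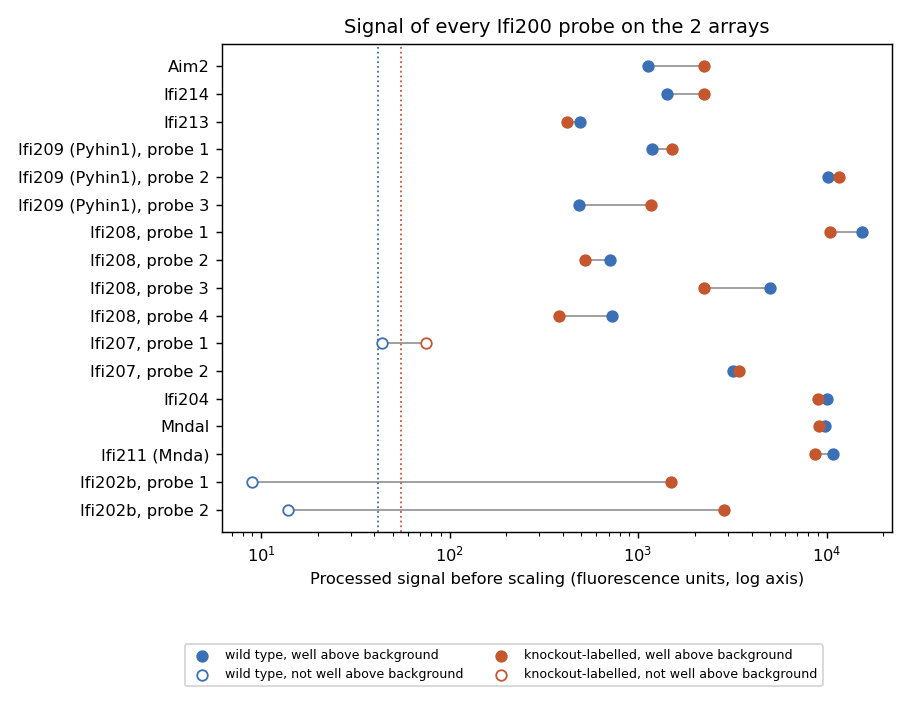
Processed signal of each of the 17 Ifi200 probes before scaling (x axis, fluorescence units, log axis) on the wild-type array (blue) and the knockout-labelled array (orange), with open circles for spots not well above background and dotted lines at the lowest signal well above background on each array. Both Ifi202b probes are near the negative controls on the wild-type array and above 1000 on the other, while the 4 Ifi208 probes are dimmer on the knockout-labelled array.

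Aim2, the DNA receptor of the inflammasome, was brighter on the knockout-labelled array with its single probe. It read 1136 in wild-type and 2243 in knockout-labelled spleen. After scaling the difference was 0.46 ± 0.20, or 1.37-fold, which stays short of 2-fold and is above 89.2% of all measured genes. Under the other 6 array scalings and background corrections it ranged from 0.36 to 0.60, never below 0.

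Ifi202b, which encodes the AIM2 inhibitor p202, was detected on the knockout-labelled array and not on the wild-type array. So were 495 of all 13716 measured genes, Ifi202b among them, and 187 were detected on the wild-type array alone. The Ifi202b probe A_55_P2032167 read 13.97 in wild-type and 2867 in knockout-labelled spleen. Its probe A_51_P151182 read 9.01 and 1490, in that order. Both wild-type spots were not well above background and lay near the negative control spots, which averaged 11.5 on that array, so the ratio has only a lower bound. By the brighter probe Ifi202b was at least 47.7-fold higher in knockout-labelled spleen, and by the other at least 24.8-fold. These bounds apply to the processed signal, with the wild-type side set to 41.9, the lowest detected signal of that array. An undetected spot can read slightly above 41.9, as an Ifi207 probe did at 43.8.

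The measured log2 differences behind these bounds were 7.16 ± 1.45 and 6.85 ± 1.45, with errors far larger than those of the bright members. With normexp background correction, which adds an offset of 50, they were 4.01 and 4.21. Both are smaller than the bounds above, which are 5.57 and 4.63 on the log2 scale. The raw spot medians before background correction were 107 and 69 on the wild-type array and 2449 and 1871 on the knockout-labelled array, with local backgrounds of 14.5 to 17 around all 4 spots. In the authors' deposited value table the same probes stood at 3.99 and 3.37 for wild type and at 11.28 and 10.28 for knockout, on a log2 scale. Both probes were thus low on the wild-type array and high on the other before and after background correction.

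Ifi204 and Mnda, with 1 probe each, were lower on the knockout-labelled array. Ifi204, the mouse relative of human IFI16, a DNA sensor that signals through STING, read 9993 and 8980 on the wild-type and the knockout-labelled array. Its scaled difference was −0.68 ± 0.20, or 0.626 times the wild-type level. Mnda (Ifi211), named after the human myeloid nuclear differentiation antigen, read 10766 and 8667, a difference of −0.84 ± 0.20 or 0.560 times. Neither gene reached 2-fold, and both stayed below 0 under all 7 settings. Bright genes as a whole lay below 0 on these arrays, and with that trend over signal removed (loess) Ifi204 was at −0.43 and Mnda at −0.59.

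Pyhin1 (Ifi209), related to human IFIX, had 3 probes that did not share a direction. The brightest read 10155 in wild type and 11652 in the knockout-labelled spleen, at −0.32 ± 0.20, which ranged from −0.42 to −0.07 over the settings. The next read 1185 and 1520, at −0.16 ± 0.21. The dimmest, A_55_P2036357, read 488 and 1172 and was at 0.74 ± 0.21, or 1.67-fold higher. The range of 1.07 between them exceeded that of 84.9% of 437 genes with at least 3 probes above background on both arrays, and signs were mixed in 66.6% of those genes. The direction of Pyhin1 is therefore not settled by these probes.

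**Figure D2:**
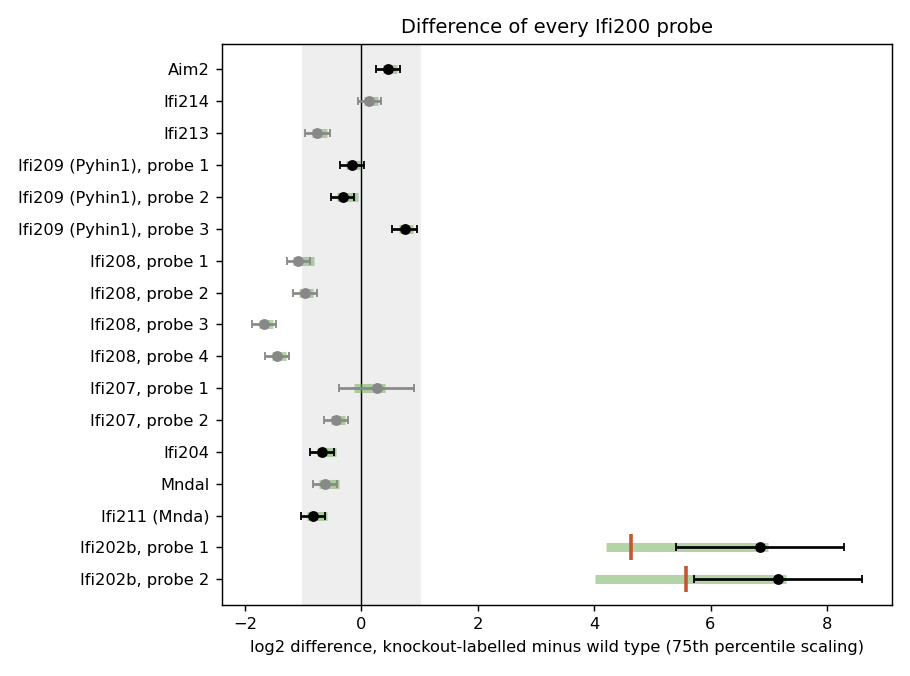
Log2 difference of each Ifi200 probe (x axis, knockout-labelled minus wild type) with the software error as bars, black for listed members and grey for other Ifi200 genes. Green bands span the 7 settings, orange ticks are the lower bounds of Ifi202b and the grey zone marks less than 2-fold. All 4 Ifi208 probes are at −0.97 or below, and the 3 Ifi209 probes fall on both sides of 0.

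Among the other Ifi200 genes, Ifi208 (also Pydc3) was the lowest of the cluster, and its 4 probes all were lower on the knockout-labelled array. Its brightest probe read 15411 in wild-type and 10455 in knockout-labelled spleen, at −1.08 ± 0.20. The probe A_55_P2181222 read 4981 and 2249, at −1.67 ± 0.20, or 0.314 times the wild-type level. The remaining probes read 711 and 520 (−0.97 ± 0.21) and 724 and 381 (−1.45 ± 0.21). Of 59 genes with at least 4 probes above background on both arrays, 12 (20.3%) had every probe below 0, as Ifi208 did. Every probe was at least 1.5-fold lower in 1 of them (1.69%), which is Ifi208 itself. Ifi208 was singled out as the lowest gene of the cluster, so nothing is read from these counts. The brightest Ifi208 probe missed 2-fold under 5 of the 6 other settings (range −1.18 to −0.81). A_55_P2181222 and A_66_P128761 stayed past it in all of them (highest −1.52 and −1.31).

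Ifi213 (also Pydc4), whose promoter window is 89.5% identical to that of Ifi208, read 492 and 418 in the same order. Its difference was −0.76 ± 0.21. Mndal read 9792 and 9097, at −0.63 ± 0.20, and at −0.39 with the loess trend removed. Ifi207 read 3208 and 3413 with its brighter probe, at −0.43 ± 0.20, and neither array detected its other probe, at 43.8 and 75.3. Ifi214 was alone among these 5 genes in lying above 0, at 0.14 ± 0.20, with signals of 1417 and 2240. The direction of Ifi214 was the same in all 7 settings, from 0.04 to 0.28, but its difference is smaller than its error.

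Set beside the promoters, 5 of the 6 measured genes with the ISRE core lay below 0, from −1.08 to 0.14, and 59.2% of all measured genes did so. Of the 3 measured genes without it, Aim2 and Ifi202b lay above 0. By its brightest probe Ifi209 lay below 0 (−0.32), although its probes fell on both sides of 0. Ifi204, at −0.68, had no promoter window and is in neither group. These counts are a description of 9 genes, some of them with near-identical promoters, and were made after the differences were seen. The members among them, Ifi202b included, were chosen with earlier results of these arrays known. The array files give no probe sequences, and Ifi200 genes are close relatives, so whether a probe also reads the RNA of a relative was not tested.

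**Figure D3:**
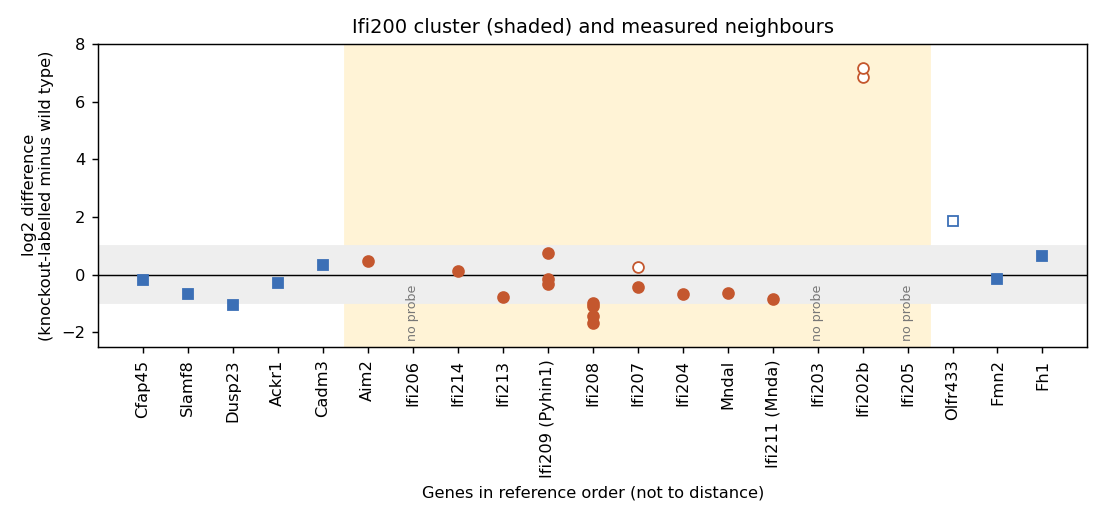
Log2 difference of each probe in reference gene order (x axis, not to distance), with Ifi200 probes in orange, the brightest probe of 8 measured neighbouring genes in blue and open symbols for probes not well above background on both arrays. Ifi202b stands apart from its measured neighbours within the shaded cluster, and Mnda and Mndal lie below 0.

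The genes around the cluster differed in both directions. Before Aim2 lie the adhesion gene Cadm3 at 0.33 ± 0.29 and the chemokine receptor gene Ackr1 at −0.28 ± 0.32, both dim. Farther along that side, the phosphatase gene Dusp23 was at −1.04 ± 0.21, the macrophage surface gene Slamf8 at −0.68 ± 0.20 and Cfap45 at −0.17. Beyond Ifi205, the olfactory receptor gene Olfr433 read 32.3 in wild type, not well above background, and 167 in the other spleen, at least 2.78-fold higher. On that side the formin gene Fmn2 was at −0.16 and the fumarase gene Fh1 at 0.66.

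**Figure D4:**
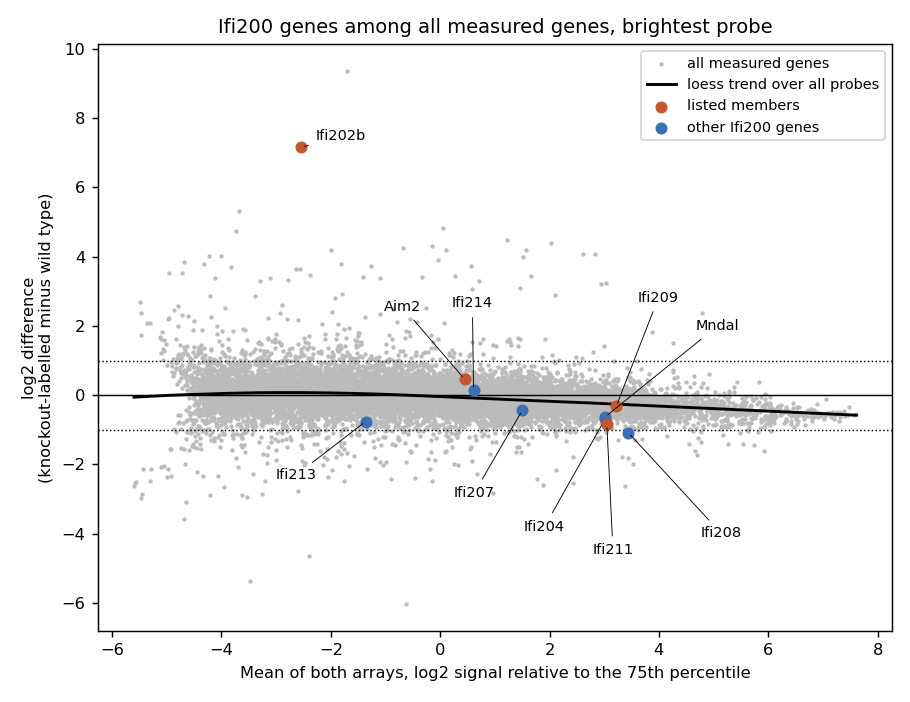
Log2 difference (y axis) against the mean log2 signal of both arrays relative to the 75th percentile (x axis) for 13716 genes by their brightest probe, with the Ifi200 genes coloured and the loess trend as a black line. Ifi202b lies far above the cloud at low mean signal, and Ifi204, Mndal, Mnda and Ifi208 lie below the falling trend of bright genes.

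With genes that just 1 array detected entered at their lower bounds, Trim12a, a gene of the tripartite motif family, was the only gene above Ifi202b. Since bounds understate such genes, this order is not exact. It read 11.6 in wild type and 11069 in the knockout-labelled spleen, a ratio of at least 184-fold. The 5 genes outside the family with values closest to the bound of Ifi202b (5.57) were Reg1 (4.83), Clps (4.49), Cela3a (4.39), Dmbt1 (4.30) and Prss1 (4.24), of which Clps, Cela3a and Prss1 encode pancreatic digestive proteins. This likeness rests on 1 difference between 2 arrays, and all 5 were detected in wild type too, with signals of 140 to 871, where Ifi202b was not.

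The partners of the Ifi200 proteins were taken from lists chosen with earlier results of these arrays known. The 19 measured inflammasome and pyroptosis genes had a median of −0.23, with 2 past 2-fold downward and 0 upward, beside 2.26% and 2.57% of all genes. Under the other settings 1 or 2 genes were past it downward. Of the 19 genes 15 lay below 0, beside 59.2% of all genes, and 4 lay above 0. The adaptor gene Pycard (ASC), to which AIM2 binds, read 5137 and 4674 on the wild-type and the knockout-labelled array, at −0.66 ± 0.20. Casp1 was at −0.33, the gasdermin gene Gsdmd at −0.21, Il1b at −0.64 and Il18 at −0.23. The 2 genes past 2-fold downward were the flagellin receptor gene Naip5 at −1.41 and Nlrp1b at −1.32, and the other probe of Nlrp1b was at 0.46. The genes above 0 were Il1a (0.49), Txnip (0.40), Casp8 (0.37) and Ninj1 (0.01), and the other probe of Txnip was at 1.19. Naip and Nlrp1 genes are multigene families, and the specificity of their probes was not tested.

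The 25 measured genes outside the family that sense or process cytosolic DNA and RNA had a median of −0.12, with 1 past 2-fold upward and 0 downward, beside the same 2.57% and 2.26%. Under the other settings 0 or 1 was past it downward. The higher gene was the lysosomal nuclease gene Dnase2a, which read 4785 in wild type and 18256 in the knockout-labelled spleen, at 1.41 with a single probe. Cgas, the enzyme gene whose cyclic product activates STING, was at −0.65 and Sting1 at −0.35. Zbp1, a sensor of left-handed nucleic acid, was at −0.95 with 1 probe and −0.89 with the other. The median of this list lay between −0.22 and 0.03 over the settings, so it has no direction.

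Interferon-stimulated genes outside the family had a median of −0.58 over 31 measured genes, near the −0.53 of the 10 Ifi200 genes. Of these 31 genes 26 lay below 0, 3 of them at least 2-fold lower, and 2 were at least 2-fold higher. Over all genes 59.2% lay below 0, 2.26% were 2-fold lower and 2.57% were 2-fold higher. Over the 7 settings the list held 2 to 5 genes at 2-fold lower and 1 to 2 at 2-fold higher. The lower were the oligoadenylate synthetase genes Oas2 (−1.33) and Oas1a (−1.01) and the kinase gene Eif2ak2 (−1.26). The higher were Ifi44 (1.04) and its relative Ifi44l. Ifi44l, like Ifi202b, was not detected in wild type, with signals of 14.2 and 548, at least 9.11-fold higher. The list median stayed below 0 under all 7 settings (−0.68 to −0.37).

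None of the 16 genes for interferon receptors and signalling was 2-fold different, beside 4.83% of all genes, a share too small to read anything from this count. Their median was −0.38, and 13 of the 16 lay below 0, beside 59.2% of all genes. The lowest were the inhibitor gene Socs1 (−0.85), Irf9 (−0.76) and Irf1 (−0.75). The receptor genes Ifnar1 and Ifnar2 were at −0.22 and −0.30, and another probe of Ifnar1 was at 1.38. With the loess trend removed the median of this list was −0.13.

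**Figure D5:**
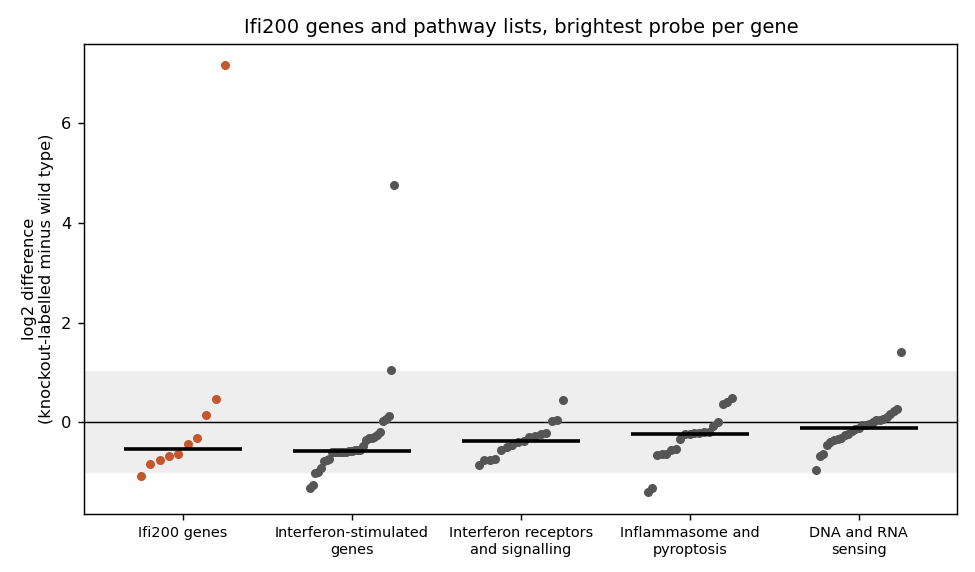
Log2 difference per gene by its brightest probe (y axis, knockout-labelled minus wild type) for the 10 Ifi200 genes (orange) and 4 pathway lists (grey), with the median of each as a black bar and a grey zone for less than 2-fold. Ifi202b and Ifi44l stand above all other points, and the medians run from −0.58 for interferon-stimulated genes to −0.12 for sensing genes.

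Cell type markers also differed between the arrays, most of all those of neutrophils and pancreas. In bulk spleen RNA, fewer cells of a type and less RNA per cell cannot be told apart. All 9 measured neutrophil markers of 10 listed lay below 0, beside 59.2% of all genes, with a median of −1.62. Their summed scaled signal was 200 times the 75th percentile on the wild-type array and 59.0 times on the knockout-labelled array. Monocyte and macrophage markers had a median of −0.11 over 8 of 10 listed genes, with sums of 93.3 and 88.7, and B cell markers had a median of 0.22 over 7 genes, with sums of 143 and 117. All 8 pancreas markers passed 2-fold upward, beside 2.57% of all genes, at a median of 4.23 and sums of 5.89 and 110. None of the measured markers of these 4 cell types was below background on either array. Dendritic, T cell, NK and erythroid markers had medians of 0.19, −0.20, 0.21 and −0.09. In these sets the dendritic gene Xcr1, detected in wild type alone, and the erythroid gene Gata1 (−1.12) were at least 2-fold lower, beside 2.26% of all genes. The part of the cell types in the Ifi200 differences was not tested.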

How the data were processed

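Gene expression was measured in spleen RNA on 2 one-colour Agilent arrays, 1 per genotype, grouped by the genotype in the labels. Spot intensity on a linear scale was deposited by the authors as scanner output, for which the headers name the software Feature Extraction 11.0.1.1, the protocol GE1_1100_Jul11 and the build mm9. They also hold 0 or 1 flags, among them the call well above background. Both arrays share 1 scan, per the file headers. A value table deposited by the authors holds log2 values whose normalization the labels do not state.

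Control spots and spots flagged as outliers (110 and 132) were left out, none was saturated, and log2 processed signals of a probe's spots were averaged. Each array's 75th percentile was subtracted. On the arrays 54.7% and 56.8% of 39420 probes were well above background. Probe accessions, stripped of versions, were looked up among RefSeq transcripts of GRCm38.p6, which named 27226 probes and left 12194 unnamed. The array's build differs, so that table served for names and gene order only, and the coordinates printed are those of the RefSeq promoter table. Each gene took the value of its brightest probe among those well above background on at least 1 array (13716 genes). Where just 1 array detected a gene, its ratio is a bound: the dim side was set to its own signal or to the lowest detected signal of that array (41.9 for wild type), whichever was larger. Such bounds apply to the processed signal with this floor alone. Counts use the measured difference. With 0 residual degrees of freedom no p-value was computed, and the number of arrays limits the precision.

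Alternatives were array median scaling, the percentile over probes above background on both arrays, quantile normalization, a loess trend, normexp with offset 50 (limma 3.58.1 in R 4.3.3), the deposited table, the median of a gene's probes and other filters. Normexp used spot medians in place of the planned means, which these files do not hold. Promoters were aligned with Biopython 1.88 (match 2, mismatch −1, gap −5 and −1). The calculation was tested on simulated data without variation between animals, so that test says nothing about how far animals differ. The members and lists were chosen with earlier results of these data known. Named are every Ifi200 probe, measured genes on each side of the cluster, the 5 genes closest in value to the member with the largest difference, and from each list the genes at 2-fold with at most 4 examples by size; other pathway genes, Trim12a and the motif counts were added after their values were seen. Some genes under this rule are not reported here.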

Additional observations from a re-analysis of the deposited data

How the results depend on the processing

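The count of 1 member at least 2-fold higher and of none lower was the same under 8 of 9 alternatives, and the filter on probes above background on both arrays gave 0 higher because it removes Ifi202b. The median of the 5 members was −0.32, and it was −0.11 with quantile normalization, −0.066 with the loess trend removed and −0.11 in the deposited table. In these settings the median is the value of a single probe, the brightest of Ifi209, a gene whose probes did not share a direction. It stayed below 0 under every alternative, and the cause of the smaller values was not tested. Of the values of single probes under the alternatives, 85 stayed within the probe's software error, 17 moved by more than it and none reversed a difference past 2-fold. Under each of the 9 alternatives, 7 Ifi200 genes lay below the median of all genes. They were 7 of 10 measured genes, or 7 of 9 with the filter on both arrays. Over all genes 53.2% of those at 2-fold were higher, 41.2% with array median scaling (293 higher and 418 lower) and 70.9% with the percentile over probes above background on both arrays (517 and 212), which moved the median of all genes by 0.15. Normexp gave 152 higher and 189 lower, beside 352 and 310, and no filter on dim probes gave 613 and 699. Figures for all 10 Ifi200 genes and for all genes were added after seeing the data. Signal over background limits Ifi202b on the wild-type array and the dimmer Ifi207 probe. No paired analysis was possible because each genotype has 1 array.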

Other observations

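The spots around each Ifi200 probe, within 2 rows and 2 columns and above background on both arrays, gave a local reading of the arrays for each probe. Their median difference over 9 to 15 spots ranged from −0.34 to 0.20 across the 17 probes. Around the 2 Ifi202b spots it was −0.34 and −0.06, and around the 4 Ifi208 spots it ranged from −0.32 to 0.00.

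Of 16 Ifi200 probes well above background on at least 1 array, 11 were below 0, beside 55.7% of all such probes. The 5 above 0 were both Ifi202b probes and 1 probe each of Aim2, Ifi214 and Ifi209. Among genes with at least 2 probes above background on both arrays, 2886 in all, the probes differed by a median of 0.38 and pointed in different directions in 46.5%. Of the pairs of measured genes with the most alike first promoter windows, Ifi208 was at −1.08 and Ifi213 at −0.76. Ifi207 was at −0.43 and Ifi211 at −0.84, and Ifi214 was at 0.14 and the brightest probe of Ifi209 at −0.32. The differences within these pairs were not tested.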
